A study of Homo sapiens with 12 samples.

Results

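ATF4 and 9 genes of the integrated stress response were followed through RNA-seq of HuH-7 cells (an established human line of hepatoma origin) that carried either a SUMOylation mutant or the wild-type (WT) form of the RNA-binding protein HuR. The genes were taken by name (ATF4, DDIT3, ASNS, CHAC1, TRIB3, SESN2, DDIT4, SLC7A11, SLC7A5 and SLC3A2), each matched to 1 Ensembl identifier. All 10 of the 10 were among the 22984 genes of 57773 counted that passed the filter on low counts, and the choice used no threshold on their values. There were 4 groups of 3 libraries. The names under which all 12 libraries were deposited carry the tag DMSO, a common vehicle, while the labels mention no treatment. RNA recovered through the V5 tag of HuR by RNA immunoprecipitation (RIP) came from cells stably expressing HuR K120/182R (mutant RIP) and from cells stably overexpressing WT HuR (WT RIP), and total RNA came from the mutant line (mutant input) and from the WT line (WT input). Every group thus carried an added, tagged HuR, and a line without one is not used here. The labels give neither the promoter of the transgene nor the number of clones behind a line, and they do not say whether the cells' own HuR remained.

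The integrated stress response joins several kinases that sense amino acid shortage, unfolded protein in the endoplasmic reticulum, double-stranded RNA or mitochondrial stress and that phosphorylate the translation factor eIF2. General translation then falls while the mRNA of ATF4, whose upstream reading frames normally hold it back, is translated, and the ATF4 protein switches on genes of amino acid supply, redox balance and, through DDIT3, cell death. HuR, the product of ELAVL1, binds U-rich and AU-rich stretches of mRNAs, many of them in 3′ untranslated regions (3′UTRs). The inputs show how much RNA of each gene a line held, and the precipitates how much of it was recovered with HuR, so a difference between the lines can be read in each.

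ATF4 and its partners bind a composite element, TGATGNAA, known from several of these genes. RefSeq start regions on GRCh38.p14 (250 bases before to 50 after a start) were at hand for 9 of the 10 genes, SLC7A11 being the one without, and were searched on both strands. A match lay in a window of ASNS, CHAC1 and SLC3A2, shown here 5′ to 3′ on the strand of the gene with the match in capitals, as they are the only windows of the 9 genes that hold these letters. Its first base was at −68 in ASNS (chr7:97872359-97872658, minus strand), at −209 in CHAC1 (chr15:40953221-40953520, plus strand) and at 37 after the start in 1 of 3 windows of SLC3A2 (chr11:62881449-62881748, plus strand). In CHAC1 and SLC3A2 the letters read as the reverse complement.
ASNS promoter: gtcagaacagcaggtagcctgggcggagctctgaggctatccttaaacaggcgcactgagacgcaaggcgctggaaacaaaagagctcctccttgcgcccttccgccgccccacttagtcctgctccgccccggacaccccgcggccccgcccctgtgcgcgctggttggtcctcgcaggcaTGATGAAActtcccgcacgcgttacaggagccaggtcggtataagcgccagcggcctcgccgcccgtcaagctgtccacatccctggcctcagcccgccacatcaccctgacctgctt
CHAC1 promoter: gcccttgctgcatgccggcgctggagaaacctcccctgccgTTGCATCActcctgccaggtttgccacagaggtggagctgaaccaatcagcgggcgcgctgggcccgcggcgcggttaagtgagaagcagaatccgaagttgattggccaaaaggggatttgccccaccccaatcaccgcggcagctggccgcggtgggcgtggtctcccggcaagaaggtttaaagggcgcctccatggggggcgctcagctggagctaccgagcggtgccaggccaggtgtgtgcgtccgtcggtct
SLC3A2 promoter: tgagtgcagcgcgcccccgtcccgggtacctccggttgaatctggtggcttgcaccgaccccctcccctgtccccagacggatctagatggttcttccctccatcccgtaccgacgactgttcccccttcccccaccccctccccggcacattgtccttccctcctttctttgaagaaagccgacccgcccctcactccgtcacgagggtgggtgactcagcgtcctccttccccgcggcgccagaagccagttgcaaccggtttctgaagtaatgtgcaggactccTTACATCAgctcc
The element was found in 3.62% of 35116 such promoters. A match is a description of letters, and no match in the other windows says only that these letters are not there.

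AU-rich elements of the kind HuR is known to bind are built on the pentamer AUUUA, written ATTTA in the genome. In the 3′UTR of 1 transcript per gene, the pentamer occurred 32 times in SLC7A11, 2 times in DDIT3 and in SLC7A5, and 1 time in ASNS and in CHAC1. The count of SLC7A11, in a 3′UTR of 7859 bases, was at percentile 99.2 of the counts of 13843 coding genes. ATF4, TRIB3, SESN2, DDIT4 and SLC3A2 had none, in 3′UTRs of only 81 bases in ATF4 and 167 in SLC3A2. One or more lay in 71.4% of coding genes. The U-rich stretch TTTTT, overlapping matches included, occurred 61 times in SLC7A11, 18 in SLC7A5 and 9 in ASNS. It occurred 4 times in DDIT4, 3 in SESN2 and in SLC3A2, and 0 times in ATF4, DDIT3, CHAC1 and TRIB3. The sites of 30 bases shown, with the pentamers in capitals, are the first windows of that length with most pentamers in the gene with the highest enrichment with HuR before any correction for base composition (DDIT3, chr12:57910411-57910440), the gene richest in pentamers (SLC7A11, chr4:139090706-139090735) and the gene most depleted (SLC7A5, chr16:87863919-87863948), all on the minus strand of GRCh37.
DDIT3 site: gcttgtatatagagattgtacATTTATTTA
SLC7A11 site: gcaaattggtctcagactttaATTTATTTA
SLC7A5 site: tttgttttgtgctaacgtcttactaATTTA

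Libraries held 31774994 to 73149117 gene counts. The scaling factors (trimmed mean of M values, TMM) lay between 1.32 and 1.78 in precipitates and between 0.526 and 0.909 in inputs, so levels are given as CPM (read counts scaled to a common depth) of the TMM-scaled library and every change is relative to the typical gene. Precipitates were made into libraries from 16 to 77 ng of RNA and inputs from 250 ng, and no mock precipitation is used here. ELAVL1 averaged 27.2 ± 3.74 CPM in mutant RIP and 34.5 ± 3.03 CPM in WT RIP, and 48.4 ± 4.18 CPM in mutant input against 58.2 ± 5.32 CPM in WT input (SD, n = 3 each); neither difference passed the test (adjusted p = 0.0561 in precipitates and 0.140 in inputs). The sum of 10 hepatocyte markers was 3465 to 3965 CPM in mutant RIP and 5744 to 6005 CPM in WT RIP, and 7059 to 8593 CPM in mutant input against 9894 to 12030 CPM in WT input. Most of that sum was AFP, at 5127 ± 656 CPM in mutant input against 8337 ± 1095 CPM in WT input. Without AFP the sum was 1001 to 1163 CPM in mutant RIP and 1212 to 1445 CPM in WT RIP, and 2623 to 2886 CPM in mutant input against 2796 to 2869 CPM in WT input, so the inputs overlapped. In precipitates 5 of the 10 were called lower in the mutant line (AFP, APOB, APOH, FGB and HNF4A) and in inputs 3 (AFP, APOH and FGB), while ALB, TTR and SERPINA1 had log2 differences of 0.25, 0.20 and 0.05 in inputs, none called. Of protein-coding genes 13.4% were called lower in precipitates and 14.2% in inputs. All 10 markers were called lower in RIP than in input in each line, as were 36.1% of protein-coding genes in the mutant line and 34.0% in the WT line. The part of these markers in the results below was not tested. Endothelial markers summed to at most 0.127 CPM in any library, stromal ones to at most 2.36 CPM and immune ones to at most 9.07 CPM.

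**Figure D1:**
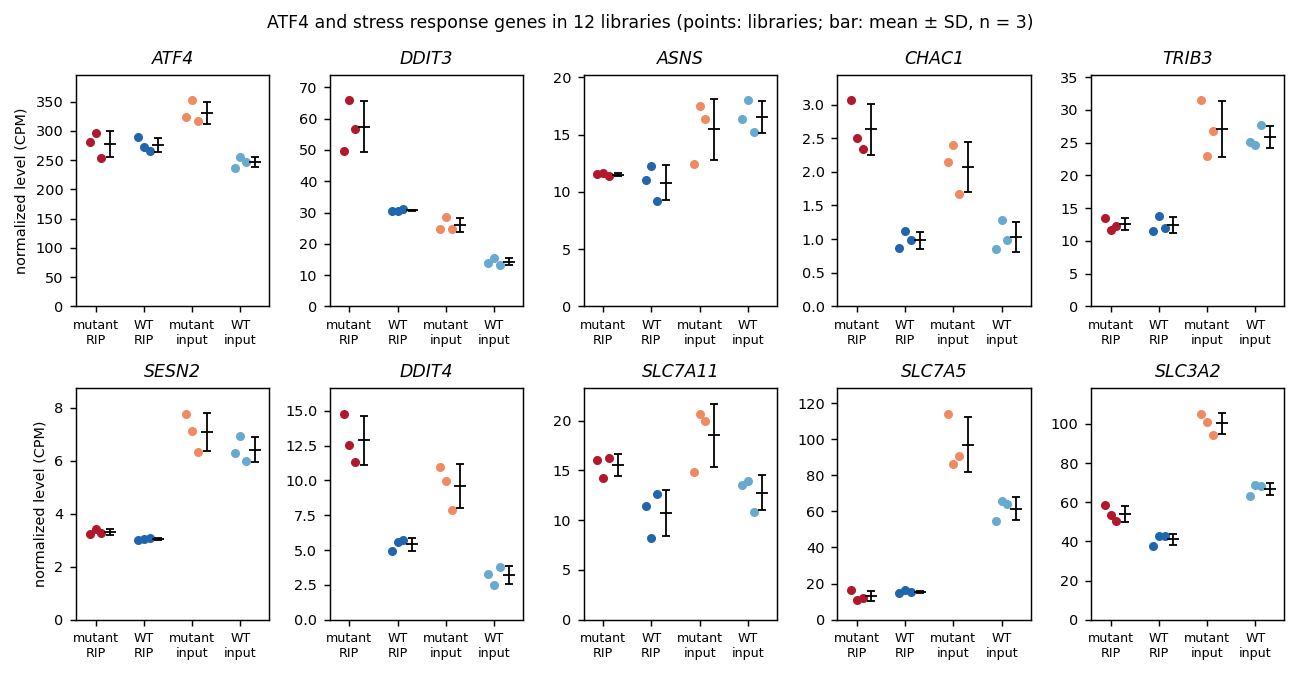
Normalized level (CPM, linear axes from 0) of each of the 10 genes in every library, with mutant RIP, WT RIP, mutant input and WT input from left to right; points are libraries and the bar beside them is the mean ± SD (n = 3). DDIT3, CHAC1 and DDIT4 stood higher in the mutant line in precipitates and inputs alike, ATF4 and SLC7A5 in inputs and not in precipitates, and SLC7A5 fell to 11.1 to 16.3 CPM in all 6 precipitates.

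In the inputs, 7 of the 10 genes were higher in the mutant line and none was lower. Their log2 differences ran from 0.43 to 1.58, and the 7 were ATF4 itself, the death-associated factor DDIT3, the glutathione-degrading enzyme CHAC1, the mTORC1 inhibitor DDIT4, and the amino acid transporter subunits SLC7A11, SLC7A5 and SLC3A2. The same 7 had all 3 mutant inputs above all 3 WT inputs, and the share of all genes that separate in this way was not counted. Of all genes tested, 7.47% (1716) were called higher and 10% (2301) lower in this comparison, and of protein-coding genes 8.91% higher. The median difference was 0.56 over the 10 genes and 0.0029 over all genes. In bulk RNA such as this, fewer cells with a transcript and less of it per cell cannot be told apart.

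ATF4, the factor at the centre of the response, had 324, 352 and 317 CPM in mutant inputs and 237, 255 and 248 CPM in WT inputs. Every mutant input was above every WT input, and the log2 difference was 0.43 ± 0.13 (SE of the fit; adjusted p = 0.0213 in edgeR's quasi-likelihood test over all 22984 genes, as for each adjusted p below). This call was lost, with the difference still between 0.41 and 0.45, when WT input 1, 2 or 3 or mutant input 2 was left out (adjusted p = 0.0901, 0.0521, 0.0544 and 0.0707). DDIT3, the transcription factor CHOP that ATF4 induces, stood at 24.6, 28.6 and 24.7 CPM in mutant inputs and 14.0, 15.5 and 13.4 CPM in WT inputs. The groups did not overlap, and the difference was 0.86 ± 0.12 (adjusted p = 2.96e-05).

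DDIT4, also called REDD1, had the largest difference of the 10 in the inputs. It stood at 10.9, 9.98 and 7.88 CPM in mutant inputs and 3.26, 2.51 and 3.82 CPM in WT inputs, a log2 difference of 1.58 ± 0.17 (adjusted p = 8.38e-07). The lowest mutant input was above the highest WT input by more than the range within either group of inputs. CHAC1 was the least abundant, with 63 to 92 reads in mutant inputs and 40 to 49 in WT inputs. Its 2.15, 2.39 and 1.67 CPM in mutant inputs were above the 0.846, 1.28 and 0.986 CPM in WT inputs, a log2 difference of 1.0 ± 0.25 (adjusted p = 0.00688).

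SLC7A5 and SLC7A11 are light chains that carry large neutral amino acids and cystine, and SLC3A2 is the heavy chain that pairs with either of them at the cell surface. All 3 were higher in mutant inputs. SLC7A5 stood at 114, 86.3 and 90.5 CPM in mutant inputs against 54.4, 66.0 and 64.3 CPM in WT inputs (log2 difference 0.66 ± 0.14, adjusted p = 0.00161). SLC3A2 stood at 105, 101 and 94.4 CPM in mutant inputs against 63.4, 68.9 and 68.2 CPM in WT inputs (0.59 ± 0.11, adjusted p = 0.000814). The cystine carrier SLC7A11 had 14.8, 20.7 and 20.0 CPM in mutant inputs against 13.6, 14.0 and 10.8 CPM in WT inputs. Its lowest mutant input was close to its highest WT input, and the difference of 0.54 ± 0.16 (adjusted p = 0.0198) was no longer called without WT input 3, mutant input 2 or mutant input 3 (0.43 to 0.49, adjusted p = 0.0944, 0.0793 and 0.0688).

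The other 3 genes did not differ past the threshold in inputs. TRIB3, a pseudokinase that ATF4 induces and that holds ATF4 back, had 31.5, 22.9 and 26.8 CPM in mutant inputs and 25.2, 24.6 and 27.7 CPM in WT inputs (log2 difference 0.07, 95% interval −0.20 to 0.33). SESN2, a leucine sensor that inhibits mTORC1, had 7.78, 7.12 and 6.34 CPM in mutant inputs and 6.30, 6.94 and 6.0 CPM in WT inputs (0.14, interval −0.17 to 0.45). ASNS, asparagine synthetase, had 12.5, 17.5 and 16.4 CPM in mutant inputs and 16.4, 18.0 and 15.2 CPM in WT inputs (−0.09, interval −0.38 to 0.20). In each of them the inputs of the lines overlapped. Of the 3 genes with a match to TGATGNAA in a window, ASNS showed no called difference in inputs, while CHAC1 and SLC3A2 did. SLC7A11 had no window to search, and a link between match and level was not tested.

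These directions rest on the scaling. With total library size in place of TMM the median of all genes stood at −0.43 in this comparison, DDIT4 alone was still called higher (1 of the 10), ASNS was called lower at −0.53 (adjusted p = 0.0447), and ATF4, TRIB3 and SESN2 took values of −0.0050, −0.36 and −0.28. Over all genes 386 were then called higher and 6822 lower. DESeq2 size factors and TMM from protein-coding genes changed no call among the 10 in the inputs.

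**Figure D2:**
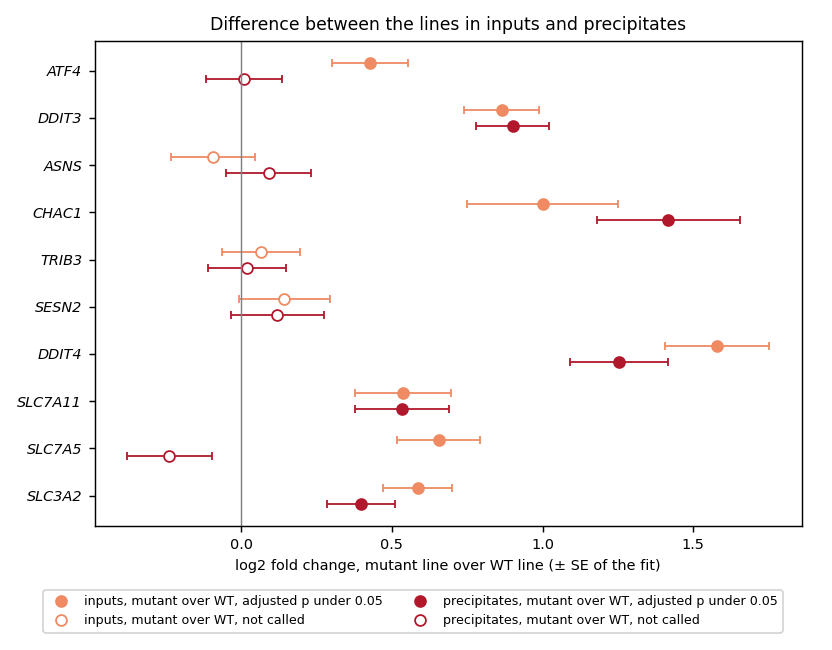
Log2 fold change of mutant line over WT line for each gene (x axis, bars are the SE of the fit), in inputs (upper point, orange) and in precipitates (lower point, dark red); filled points had an adjusted p under 0.05. In inputs 7 of 10 are filled and in precipitates 5, with ATF4 at 0.43 in inputs against 0.01 in precipitates and SLC7A5 at 0.66 against −0.24.

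In the precipitates, 5 of the 10 genes were higher in mutant RIP and none was lower, where 9.87% of all genes tested were called higher and 9.76% lower. All 5 (CHAC1, DDIT4, DDIT3, SLC7A11 and SLC3A2) were also among the 7 called in inputs, while ATF4 and SLC7A5 were called in inputs only. That is a difference in calls, and the test of the difference itself is given further on. The libraries of the lines did not overlap in 6 of the 10, the 5 called genes and SESN2. The share of all genes that separate in this way was not counted, so this count has no background to be read against.

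CHAC1 had 3.06, 2.50 and 2.34 CPM in mutant RIP against 0.860, 1.11 and 0.982 CPM in WT RIP, a log2 difference of 1.42 ± 0.24 (adjusted p = 0.000144). DDIT4 had 14.8, 12.5 and 11.3 CPM in mutant RIP against 4.90, 5.60 and 5.73 CPM in WT RIP (1.25 ± 0.16, adjusted p = 6.54e-06). In both genes every mutant precipitate was about 2 or more times every WT one. DDIT3 had 49.6, 65.9 and 56.8 CPM in mutant RIP against 30.6, 30.6 and 31.0 CPM in WT RIP (0.90 ± 0.12, adjusted p = 9.41e-06), with WT libraries almost equal and mutant ones spread.

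SLC3A2 had 58.5, 53.4 and 50.3 CPM in mutant RIP against 37.6, 42.9 and 42.6 CPM in WT RIP (0.40 ± 0.11, adjusted p = 0.0150). SLC7A11 had 16.1, 14.3 and 16.3 CPM in mutant RIP against 11.4, 8.18 and 12.6 CPM in WT RIP (0.53 ± 0.16, adjusted p = 0.0175). Both calls were close to the threshold. SLC3A2 lost it without WT RIP 1 (adjusted p = 0.0817), without mutant RIP 1 (0.0691) or with no filter on low counts (0.0514). SLC7A11 lost it without WT RIP 2 (0.37, adjusted p = 0.113), mutant RIP 1 (adjusted p = 0.0502) or mutant RIP 3 (adjusted p = 0.0593).

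ATF4 had 282, 297 and 254 CPM in mutant RIP and 289, 273 and 266 CPM in WT RIP. The libraries of the lines were intermixed, and the log2 difference was 0.009 with a 95% interval of −0.25 to 0.27. The interval in inputs was 0.16 to 0.69, which overlaps it. SLC7A5 had 16.2, 11.1 and 12.1 CPM in mutant RIP and 15.1, 16.3 and 15.3 CPM in WT RIP. Mutant RIP 1 was among the WT precipitates and the other two below them, and the difference was −0.24 ± 0.14 (adjusted p = 0.257). Without mutant RIP 1 it was −0.42 (adjusted p = 0.0437). TRIB3 (12.5 ± 0.932 CPM in mutant RIP, 12.4 ± 1.24 CPM in WT RIP), SESN2 (3.31 ± 0.101 CPM in mutant RIP, 3.05 ± 0.0383 CPM in WT RIP) and ASNS (11.5 ± 0.110 CPM in mutant RIP, 10.8 ± 1.54 CPM in WT RIP) had differences of 0.02, 0.12 and 0.09, none called (means ± SD, n = 3). Scaling by total library size put the median of all genes at −0.17 here and left 3 of the 5 called, DDIT3, CHAC1 and DDIT4. Over all genes it called 776 higher and 2529 lower. It also took ATF4, TRIB3, SESN2 and ASNS to −0.18, −0.15, −0.064 and −0.087.

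Each precipitate was then set against the input of the same line. In the mutant line 2 of the 10 genes were higher in RIP (DDIT3 and DDIT4) and 5 lower (SLC7A5, TRIB3, SESN2, SLC3A2 and ASNS), where 29.0% of all genes tested were called higher and 28.0% lower. In the WT line the same 2 were higher and the same 5 lower, where 25.6% of all genes were called higher and 25.4% lower. Among protein-coding genes the shares called lower were 36.1% in the mutant line and 34.0% in the WT line. The counts of the 10 are read against these shares, with RIP and input libraries differing in RNA amount too.

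DDIT3 had the highest enrichment of the 10 in this fit, with a mean of 57.4 ± 8.18 CPM in mutant RIP against 26.0 ± 2.27 CPM in mutant input (log2 enrichment 1.14 ± 0.12, adjusted p = 1.46e-08) and 30.7 ± 0.242 CPM in WT RIP against 14.3 ± 1.07 CPM in WT input (1.11 ± 0.12, adjusted p = 4.87e-08). Its lowest precipitate was above its highest input in either line. DDIT4 was enriched at 0.43 ± 0.16 in the mutant line (12.9 ± 1.76 CPM in mutant RIP, 9.60 ± 1.57 CPM in mutant input; adjusted p = 0.0262) and at 0.75 ± 0.17 in the WT line (5.41 ± 0.446 CPM in WT RIP, 3.20 ± 0.653 CPM in WT input; adjusted p = 0.000674). The mutant call fell away without mutant RIP 1 (0.31, adjusted p = 0.147), mutant input 2 (0.43, adjusted p = 0.0555) or mutant input 3 (0.30, adjusted p = 0.171). All means here are over 3 libraries.

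SLC7A5 was the most depleted. Its mean was 13.1 ± 2.69 CPM in mutant RIP against 97.0 ± 15.1 CPM in mutant input (log2 enrichment −2.88 ± 0.15, adjusted p = 8.23e-14), and 15.5 ± 0.649 CPM in WT RIP against 61.6 ± 6.27 CPM in WT input (−1.99 ± 0.14, adjusted p = 4.13e-11). No precipitate came near any input. Its partner SLC3A2 was depleted less, at −0.89 ± 0.11 in the mutant line (adjusted p = 2.91e-07) and −0.70 ± 0.11 in the WT line (adjusted p = 1.31e-05). SLC7A11, the other light chain, stood at −0.25 ± 0.16 in the mutant line and −0.25 ± 0.16 in the WT line, not called in either. Without mutant input 1 it was called in the mutant line, at −0.395 (adjusted p = 0.0387). On a scale per kilobase of all annotated exons (RPKM), the level of SLC7A5 over that of SLC3A2 was 0.372, 0.280 and 0.323 in mutant RIP and 0.537, 0.509 and 0.480 in WT RIP, and 1.46, 1.15 and 1.29 in mutant input and 1.15, 1.29 and 1.27 in WT input. Which chain is higher depends on the length used, since SLC3A2 has 6392 annotated exon bases and a coding transcript of 1885 bases, while SLC7A5 has 4764 and 4556. Per kilobase of transcript, a choice made after seeing the data, the ratio was 0.10 ± 0.014 in mutant RIP and 0.157 ± 0.00872 in WT RIP, and 0.399 ± 0.0480 in mutant input and 0.381 ± 0.0221 in WT input (SD, n = 3). On either length the ratio was lower in each of the 6 precipitates than in each of the 6 inputs.

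TRIB3 was depleted at −1.11 ± 0.13 in the mutant line (12.5 ± 0.932 CPM in mutant RIP, 27.0 ± 4.28 CPM in mutant input) and −1.06 ± 0.13 in the WT line (12.4 ± 1.24 CPM in WT RIP, 25.8 ± 1.68 CPM in WT input). SESN2 was depleted at −1.10 ± 0.15 in the mutant line (3.31 ± 0.101 CPM in mutant RIP, 7.08 ± 0.719 CPM in mutant input) and −1.07 ± 0.15 in the WT line (3.05 ± 0.0383 CPM in WT RIP, 6.41 ± 0.479 CPM in WT input). Adjusted p was at most 2.18e-06 for both genes in both lines. ASNS was lower at −0.42 ± 0.14 in the mutant line (adjusted p = 0.0126) and −0.61 ± 0.14 in the WT line (adjusted p = 0.000762). The mutant call for ASNS was lost without mutant input 2 (−0.35, adjusted p = 0.0653) and with TMM from protein-coding genes (−0.29, adjusted p = 0.0844). CHAC1 stood at 0.35 ± 0.23 in the mutant line and −0.06 ± 0.25 in the WT line, called in neither.

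**Figure D3:**
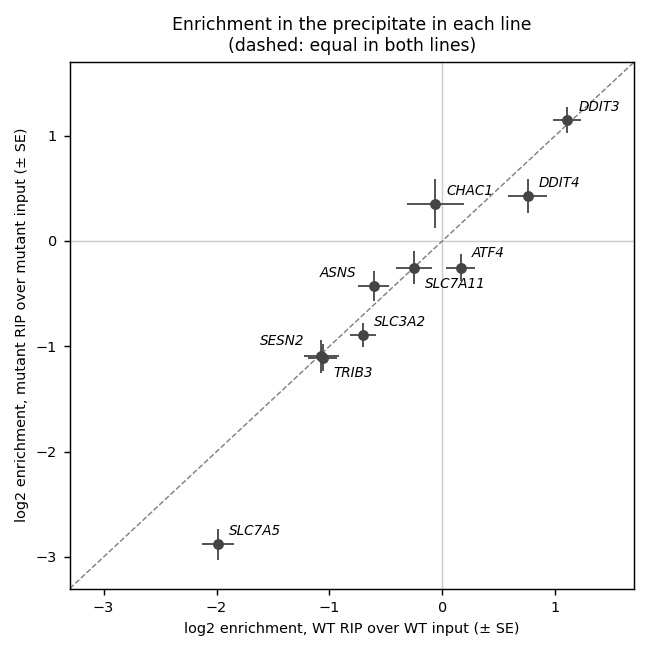
Log2 enrichment of each gene in the mutant line (mutant RIP over mutant input, y axis) against that in the WT line (WT RIP over WT input, x axis), with bars for the SE of the fit in each direction and a dashed line where both are equal. DDIT3, TRIB3, SESN2 and SLC7A11 lie within 0.05 of the line, while SLC7A5 (−2.88 against −1.99) and ATF4 (−0.25 against 0.16) lie below it.

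The difference of the enrichments, mutant minus WT, asks whether the precipitate moved with its input. No gene of the 10 was called, and 15 of 22984 genes were (0.0653%, by edgeR). At an unadjusted p under 0.05 there were 2 of the 10, SLC7A5 and ATF4, beside 13.1% of all genes. For SLC7A5 the difference was −0.89 ± 0.20 (95% interval −1.30 to −0.49, unadjusted p = 0.000124, adjusted p = 0.0692), which ranked 41 by p among all genes tested and 3 among the 11411 with a lower enrichment in the mutant line. It was called at this threshold by the DESeq2 test (adjusted p = 0.00769), with no filter on low counts (0.00522), with the trend with GC content removed (0.0435), with a replicate block within line (0.0119) and without mutant RIP 1 (0.0258), and the adjusted p over all leave-one-out fits ran from 0.0258 to 0.30.

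ATF4 took opposite sides in the lines. Its 3 mutant precipitates (254 to 297 CPM) were all below the 3 mutant inputs (317 to 352 CPM), and its 3 WT precipitates (266 to 289 CPM) all above the 3 WT inputs (237 to 255 CPM). Neither enrichment was called, at −0.26 ± 0.13 in the mutant line (adjusted p = 0.0911) and 0.16 ± 0.13 in the WT line (adjusted p = 0.297). The DESeq2 test called the mutant enrichment lower (−0.228, adjusted p = 0.0357), and TMM from protein-coding genes called the WT enrichment higher (0.305, adjusted p = 0.0459). Their difference was −0.42 ± 0.18 (95% interval −0.79 to −0.05, adjusted p = 0.307). For the 8 other genes the intervals all held 0. The narrowest were those of SLC3A2 (−0.19, −0.52 to 0.14) and DDIT3 (0.04, −0.32 to 0.39), and the widest was that of CHAC1 (0.42, −0.29 to 1.13).

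Enrichment moved with base composition across the transcriptome. Over protein-coding genes in 3 groups of nearly equal size by transcript GC content, the median log2 enrichment in GC-poor, middle and GC-rich genes was 0.38, −0.07 and −0.83 in the mutant line and 0.18, −0.06 and −0.67 in the WT line. Of the 10 genes 6 were GC-rich, among them SLC7A5 (61.2%), TRIB3 (61.5%), SESN2 (59.6%) and SLC3A2 (57.8%). SLC7A11 (35.4%) and ASNS (42.7%) were GC-poor, and DDIT3 (50.5%) and ATF4 (53.2%) were in the middle group. With the trend of each library with GC content removed, TRIB3 stood at −0.06 in the mutant line and −0.20 in the WT line, SESN2 at −0.21 in the mutant line and −0.35 in the WT line, and SLC3A2 at −0.15 in the mutant line and −0.10 in the WT line, each no longer called. SLC7A5 kept −1.86 in the mutant line and −1.14 in the WT line. The difference between the lines in inputs moved with GC content too, with medians of −0.20, −0.02 and 0.13 in GC-poor, middle and GC-rich genes. With the trend removed the same 7 genes were called higher in inputs, beside 2333 genes higher and 2123 lower over all genes. They stood at 0.37 (ATF4), 0.48 (SLC3A2), 0.51 (SLC7A5), 0.82 (SLC7A11), 0.85 (DDIT3), 0.86 (CHAC1) and 1.47 (DDIT4).

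In that fit CHAC1, a GC-rich gene, was called as enriched at 1.36 in the mutant line (adjusted p = 1.11e-05) and 0.77 in the WT line, and SLC7A11, a GC-poor one, as depleted at −0.77 in the mutant line (adjusted p = 1.42e-06) and −0.52 in the WT line (adjusted p = 0.000347). DDIT3 stood at 1.30 in the mutant line and 1.22 in the WT line there, below CHAC1 in the mutant line and below DDIT4 in the WT line. DDIT4 stood at 1.19 in the mutant line and 1.38 in the WT line, and ASNS at −0.75 in the mutant line and −0.79 in the WT line. ATF4 took 0.11 in the mutant line and 0.44 in the WT line (adjusted p = 0.00165 in the WT line). Total library size instead of TMM put the median of all genes at 1.38 in the mutant line and 1.12 in the WT line. With it 7 of the 10 were called higher in the mutant line and 6 in the WT line, and 1, SLC7A5, was called lower in each. Over all genes 16795 of 22984 were then called higher and 922 lower in the mutant line, and 15761 and 879 in the WT line. Under that scaling ATF4, ASNS, TRIB3, SESN2, SLC7A11 and SLC3A2 changed sign in the mutant line, and ASNS, CHAC1, SLC7A11 and SLC3A2 in the WT line. Across coding genes, the median log2 enrichment was −0.50 in the mutant line and −0.43 in the WT line for 3962 genes with no ATTTA in the 3′UTR, and 0.15 and 0.06 for 4479 genes with 5 or more. SLC7A11, with 32, was below both of these last medians. Of the genes with none, DDIT4 and ATF4 were above the medians of the first in each line, and TRIB3, SESN2 and SLC3A2 were below them. The split by ATTTA was not separated from the trend with GC content.

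**Figure D4:**
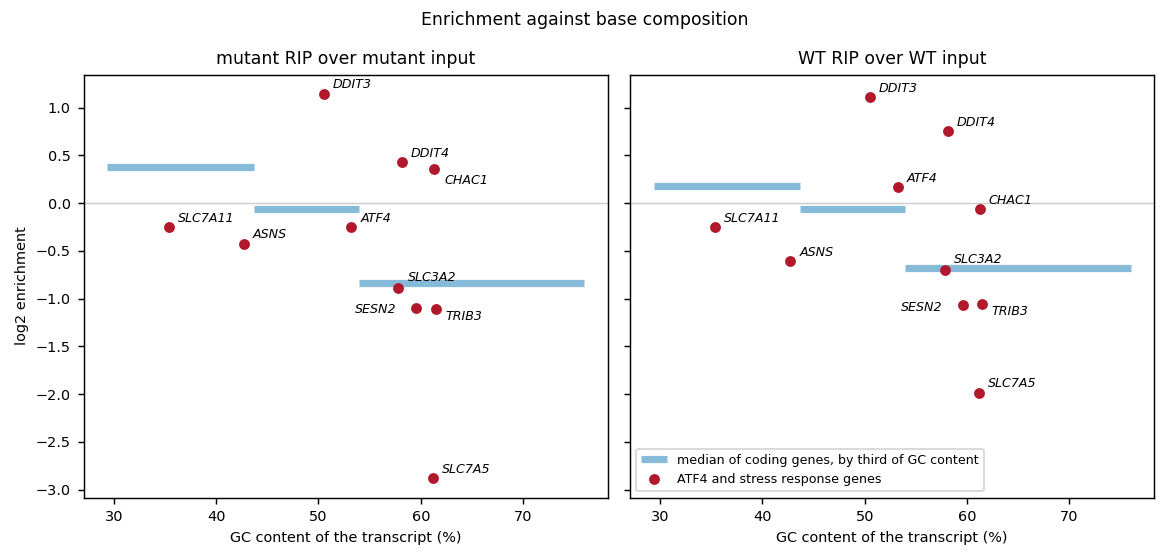
Log2 enrichment of each gene (y axis) against the GC content of its transcript (x axis, %), in the mutant line (left) and the WT line (right); blue bars are the medians of protein-coding genes in 3 groups by GC content, drawn over the GC range of each group. TRIB3, SESN2 and SLC3A2 lie within 0.40 of the GC-rich median of their line, and SLC7A5 lies 2.05 below it in the mutant line and 1.31 below it in the WT line.

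On the RPKM scale, which divides by the length of all annotated exons of a gene, ATF4 led the 10 in every group, at 106 ± 8.39 in mutant RIP and 106 ± 4.55 in WT RIP, and at 127 ± 7.16 in mutant input and 94.3 ± 3.38 in WT input. DDIT3 came next in precipitates, at 43.9 ± 6.26 in mutant RIP and 23.5 ± 0.185 in WT RIP. In inputs SLC7A5 and DDIT3 were next and close to each other, at 20.4 ± 3.17 and 19.9 ± 1.74 RPKM in mutant input and 12.9 ± 1.32 and 10.9 ± 0.815 RPKM in WT input. SLC7A5 was placed 6 of 10 in mutant RIP and 5 of 10 in WT RIP, with 2.76 ± 0.564 RPKM in mutant RIP and 3.26 ± 0.136 RPKM in WT RIP. SLC7A11, CHAC1 and SESN2 stood at 2.05 RPKM or less in every group. Per kilobase of 1 transcript per gene ATF4 still led and DDIT3 was still next in precipitates, but in inputs SLC3A2 came second, at 53.2 ± 2.91 in mutant input and 35.5 ± 1.61 in WT input. DDIT3 followed there at 28.8 ± 2.51 in mutant input and 15.8 ± 1.18 in WT input, and SLC7A5 at 21.3 ± 3.31 in mutant input and 13.5 ± 1.38 in WT input.

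Some reads of these genes cannot be assigned with certainty, since the strand setting of the counting is not given in the sources used here. DDIT3 shares 27.2% of its exon bases with MARS1, methionyl-tRNA synthetase, and 4.44% with MBD6, both on the opposite strand. MARS1 averaged 77.4 ± 5.71 CPM in mutant RIP and 58.6 ± 2.12 CPM in WT RIP, and 71.2 ± 3.64 CPM in mutant input and 57.2 ± 3.57 CPM in WT input. Between the lines it differed by 0.40 in precipitates (adjusted p = 0.0126) and by 0.32 in inputs (adjusted p = 0.0543), less than the 0.90 and 0.86 of DDIT3. Its enrichment was 0.12 in the mutant line and 0.03 in the WT line, where that of DDIT3 was 1.14 in the mutant line and 1.11 in the WT line. MBD6 had 19.6 ± 2.60 CPM in mutant input and 10.9 ± 2.08 CPM in WT input, a log2 difference of 0.85 (adjusted p = 0.000287) that was close to that of DDIT3 in inputs. In precipitates it stood at 0.31 (adjusted p = 0.162), and its enrichment was −1.74 in the mutant line and −1.20 in the WT line.

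An antisense noncoding gene, ENSG00000260466, lies over 5.69% of the exon bases of SLC7A5, and its own enrichment was −2.51 in the mutant line and −1.46 in the WT line. Its pseudogenes SLC7A5P1 and SLC7A5P2 held 1.45% and 1.99% as many reads as SLC7A5. Their enrichments were −2.93 and −3.11 in the mutant line and −2.04 and −2.15 in the WT line, close to those of the gene itself. SLC7A11 shares 8.97% with SLC7A11-AS1, which did not differ past the threshold in any of the 5 comparisons. ASNSP1 held 10.6% as many reads as ASNS, and ATF4P3 held 1.04% as many as ATF4.

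Of 58 other genes of the pathway, listed by role, 57 were tested. In inputs 12 were higher and 8 lower in the mutant line, with a median of −0.004, and in precipitates 13 were higher and 8 lower, with a median of 0.09. In the difference of enrichments none of the 57 was called. Beside these counts, 7.47% of all genes were called higher and 10% lower in inputs, and 8.91% and 14.2% of protein-coding genes. In precipitates 11.6% of protein-coding genes were called higher and 13.4% lower. Of 13 other stress-induced genes 6 were higher and 1 lower in mutant inputs, with a median of 0.47. Of 18 genes of the eIF2 kinases, eIF2, eIF2B and the eIF2 phosphatase none was higher and 4 were lower, with a median of −0.10. The difference between these lists was not tested.

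SLC7A1, a carrier of cationic amino acids, had the largest difference of all the listed genes. It stood at 6.59, 7.07 and 7.85 CPM in mutant inputs against 0.381, 0.471 and 0.343 CPM in WT inputs (log2 difference 4.17 ± 0.26, adjusted p = 1.21e-10), and at 4.17, 4.46 and 3.33 CPM in mutant RIP against 0.0993, 0.282 and 0.168 CPM in WT RIP (4.40 ± 0.27, adjusted p = 9.11e-11). WT libraries held so few of its reads that the fold is uncertain, yet no library of one line came near the other line. Its relative SLC7A9, taken from a list of paralogs of the 10 genes, was also higher, by 2.16 in inputs and 1.61 in precipitates, at levels of 1.14 CPM or less. The glutamine carrier SLC1A5 was higher by 0.49 in inputs and 0.59 in precipitates, and the glycine carrier SLC6A9 by 0.61 in inputs (adjusted p = 0.0263). The neutral amino acid carrier SLC1A4 was lower by a log2 difference of −0.53 in inputs and −0.54 in precipitates. In the list of 7 other amino acid transporters, which does not hold SLC7A9, 3 were thus higher (SLC7A1, SLC1A5 and SLC6A9) and 1 lower (SLC1A4) in mutant inputs. Over protein-coding genes 8.91% were called higher there and 14.2% lower.

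STC2, a secreted glycoprotein induced by stress, had 4.23, 3.54 and 2.99 CPM in mutant inputs and 0.888, 1.31 and 1.24 CPM in WT inputs (1.65 ± 0.24, adjusted p = 3.28e-05), and a difference of 1.72 in precipitates. The growth factor gene VEGFA was higher by 0.60 in inputs and 0.49 in precipitates, the autophagy receptor SQSTM1 by 0.52 in inputs and 0.48 in precipitates, the tRNA exporter XPOT by 0.47 in inputs and 0.58 in precipitates, and PMAIP1, which encodes the death-promoting protein NOXA, by 0.95 in inputs and 1.10 in precipitates. The death receptor TNFRSF10B, which DDIT3 is known to induce, was higher by 0.56 in inputs (57.6, 58.0 and 55.1 CPM in mutant inputs, 37.1, 39.0 and 40.0 CPM in WT inputs) and stood at 0.10 in precipitates (adjusted p = 0.574). It was depleted at −1.12 in the mutant line and −0.66 in the WT line.

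Among 6 transcription factors that pair with ATF4 or lie downstream of it, CEBPB was higher in mutant inputs by 0.76 ± 0.15 (adjusted p = 0.000912) and ATF3 by 1.13 ± 0.24 (adjusted p = 0.00208). In precipitates none of the 6 was higher and 3 were lower, JDP2 at −1.02, ATF5 at −0.64 and CEBPG at −0.40. Over protein-coding genes 8.91% were called higher in inputs, and 11.6% higher and 13.4% lower in precipitates. CEBPB had 6.56, 6.45 and 7.85 CPM in mutant RIP and 6.88, 6.19 and 6.5 CPM in WT RIP, with 18.8, 15.0 and 12.8 CPM in mutant inputs and 8.33, 10.2 and 8.98 CPM in WT inputs. As in ATF4 and SLC7A5, the inputs of the lines were apart and the precipitates intermixed, and the difference of enrichments was −0.67 ± 0.21 (adjusted p = 0.167).

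Of 13 genes of amino acid and one-carbon synthesis, 1 was higher and 2 were lower in inputs, near the shares over protein-coding genes (8.91% higher and 14.2% lower). The mitochondrial folate enzyme ALDH1L2 was higher by 2.02 ± 0.37 (adjusted p = 0.000465) at 1.22 CPM or less in every input. The phosphoserine phosphatase PSPH was lower at −0.54 and the cystathionine synthase CBS at −0.47. Of the upstream genes, IMPACT, an inhibitor of the kinase GCN2, was lower at −0.86 ± 0.15 (8.85, 13.3 and 14.8 CPM in mutant inputs, 25.0, 21.4 and 20.8 CPM in WT inputs), EIF2AK3, the kinase PERK, at −0.44, EIF2B3 at −0.48 and EIF2S3 at −0.38. In precipitates 2 of the 18 upstream genes were called higher and 2 lower, where 11.6% of protein-coding genes were called higher and 13.4% lower. GCN1, which activates GCN2, was higher by 0.75 (adjusted p = 0.000620) and EIF2S1, the subunit that is phosphorylated, by 0.45 (adjusted p = 0.0108). The lower ones were EIF2AK3 (means of 7.51 CPM in mutant RIP and 10.3 CPM in WT RIP) and IMPACT (14.6 CPM in mutant RIP and 19.8 CPM in WT RIP).

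In the enrichments, 10 of the 57 genes were higher and 27 lower in mutant RIP against its input, and 8 higher and 26 lower in WT RIP against its input. Over protein-coding genes 26.6% were called higher and 36.1% lower in the mutant line, and 22.0% higher and 34.0% lower in the WT line. The neutral amino acid carrier SLC38A2 was enriched at 1.44 in the mutant line and 1.02 in the WT line, KLHL24 at 1.97 in the mutant line and 1.30 in the WT line, and the mitochondrial protease OMA1, which shares 6.91% of its exon bases with DAB1 on the same strand, at 2.76 in the mutant line and 2.4 in the WT line. The cystathionine synthase CBS stood at −1.44 in the mutant line and −1.50 in the WT line, and PHGDH, which opens serine synthesis, at −1.19 in the mutant line and −1.53 in the WT line.

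The genes whose level followed that of ATF4 most closely over the 12 libraries, among 9647 protein-coding genes with a mean log2 CPM of at least 2, were PITHD1 (Pearson r = 0.892), TWNK (0.880), MAD2L1BP (0.854), MANF (0.851) and ZNF7 (0.849). These values describe 12 libraries in 4 groups that share their scaling, and carry no test. MANF, a factor of the endoplasmic reticulum stress response, averaged 67.4 ± 7.04 CPM in mutant RIP and 67.5 ± 8.59 CPM in WT RIP, and 87.0 ± 6.82 CPM in mutant input and 63.7 ± 3.27 CPM in WT input. Of the 10 genes, those nearest to ATF4 were DDIT4 (r = 0.601, place 272), SLC3A2 (0.528, place 454) and SLC7A11 (0.525, place 466), and the farthest was ASNS (0.0768, place 3756). CHAC1 was below the level needed to be placed.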

How the data were processed

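Gene-level counts of 12 libraries, 3 in each of 4 groups, were analysed. The values the authors deposited are raw counts of reads per Ensembl gene, 1 set per library. Per the labels' protocols, stranded total RNA libraries were made, and the submitters' processing notes name bcl2fastq 2.20.0.422, cutadapt, STAR 2.4.0j, featureCounts 1.6.4 and hg19. The annotation, the strand setting and the treatment of multi-mapping reads are not given in the sources used here. The labels do not say that replicates were separate cultures, so the p-values cover only how these libraries vary, which may be technical variation. Replicates differed by more than sampling noise (chi-square per degree of freedom 15.0 to 229), and depth was 31774994 to 73149117 counts per library.

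Identifiers were matched to GENCODE release 44 on GRCh37 (55538 of 57773; the unmatched held 2.65% to 21.0% of a library's counts). In R 4.3.3, edgeR 4.0.16 (limma 3.58.1) kept 22984 genes with filterByExpr (minimum count 10, minimum total 15) and fitted all 12 libraries in 1 robust quasi-likelihood model with TMM scaling, 1 coefficient for each of 4 groups (8 residual degrees of freedom, biological coefficient of variation 0.157 over all genes). A gene was called where its p, adjusted over all genes by Benjamini-Hochberg, was under 0.05. SE were derived from the F statistic, and 95% intervals use the t distribution of the fit. Fold changes were set against the typical gene. Levels per length used all annotated exons and, as an alternative added after seeing the data, 1 transcript per gene. The fit was tested on simulated data. Tables and figures used Python 3.11.15 with pandas 2.3.3, numpy 2.4.6 and matplotlib 3.10.9. Alternatives were DESeq2 1.42.0 as test, other scalings and filters, only the groups compared, replicate blocks, removal of the GC trend and leaving out each library. 3′UTR pentamers were counted in 1 transcript per gene, and promoters are RefSeq's.

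The genes, lists and alternatives were chosen with earlier results of these data known. All 10 genes are named. Of the other lists, named genes come from the up to 4 per list and comparison with the smallest adjusted p under 0.05. Not every gene that this rule gives is named, and values in the other comparisons are given for some of them only. The 5 genes most like ATF4, genes that overlap or copy a member, and ELAVL1 are named too.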

Additional observations from a re-analysis of the deposited data

Results flagged for a closer look

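The enrichment of ATF4 stood out because the lines moved in opposite ways: each mutant RIP library was below each mutant input and each WT RIP library was above each WT input. The difference of enrichments, mutant minus WT, was −0.418 on the log2 scale. It was tested and did not pass (adjusted p = 0.307 in edgeR's quasi-likelihood test), and over the fits that left out 1 library it ran from −0.489 to −0.355 (adjusted p = 0.272 to 0.552). The inputs differed by 0.43 between the lines and the precipitates by 0.009. The DESeq2 test called the mutant enrichment lower (−0.228, adjusted p = 0.0357), and TMM from protein-coding genes called the WT enrichment higher (0.305, adjusted p = 0.0459). With the GC trend removed, ATF4 was above its input in both lines, at 0.11 in the mutant line and 0.44 in the WT line.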

How the results depend on the processing

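Of 1120 single-gene values under an alternative, 984 kept their direction and their side of the threshold and 76 changed sign. Among those that kept their sign, 39 lost a call and 21 gained one. Some of the values that changed sign also gained or lost a call, and these are not in the last 2 counts. With total library size the calls among the 10 genes became 2 in inputs (1 higher, 1 lower), 3 in precipitates (3 higher), 7 higher and 1 lower in the mutant enrichment, and 6 higher and 1 lower in the WT enrichment. Over all genes that scaling called 386 higher and 6822 lower in inputs, and 776 and 2529 in precipitates. It called 16795 higher and 922 lower in the mutant enrichment, and 15761 and 879 in the WT enrichment. Values that changed sign there were −0.005, −0.362 and −0.282 for ATF4, TRIB3 and SESN2 in inputs, −0.179, −0.0865, −0.15 and −0.064 for ATF4, ASNS, TRIB3 and SESN2 in precipitates, 1.06, 0.892, 0.198, 0.211, 1.07 and 0.423 for ATF4, ASNS, TRIB3, SESN2, SLC7A11 and SLC3A2 in the mutant enrichment, 0.451, 1.01, 0.829 and 0.356 for ASNS, CHAC1, SLC7A11 and SLC3A2 in the WT enrichment, and 0.212, 0.218, 0.237 and 0.0664 for TRIB3, SESN2, SLC7A11 and SLC3A2 in the difference of enrichments. With the GC trend removed, 3 were lower in the mutant enrichment, and 4 were higher and 3 lower in the WT enrichment, with or without the replicate block. Over all 22984 genes that setting called 7194 higher and 5524 lower in the mutant enrichment, and 6832 and 4951 in the WT enrichment. With the block it called 7211 and 5617 in the mutant enrichment, and 6839 and 5043 in the WT enrichment. Changes of sign there, without and with the replicate block, were 0.056 and 0.0542 (ASNS, inputs), −0.0835 and −0.0859 (TRIB3, inputs), 0.774 and 0.778 (CHAC1, WT enrichment), 0.111 and 0.111 (ATF4, mutant enrichment), 0.142 and 0.14 (TRIB3, difference) and 0.132 and 0.129 (SESN2, difference). Other changes of sign were −0.00932 for ATF4 and −0.000948 for TRIB3 in precipitates with no filter, 0.0776 for CHAC1 in the WT enrichment with TMM from coding genes, and 0.00515 for SLC7A11 in the difference with at least 50 counts in 3 libraries. ATF4 gained a call at −0.228 in the mutant enrichment by the DESeq2 test and at 0.305 in the WT enrichment with TMM from coding genes. The cause of these changes was not tested.

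In the difference of enrichments 1 gene, SLC7A5, was called lower by the DESeq2 test, with no filter, with the GC trend removed (with or without the replicate block, adjusted p = 0.0212 with it) and with a replicate block within line (adjusted p = 0.0119), and over all genes the calls ran from 0 (without WT RIP 1 or mutant RIP 3) and 1 (at least 50 counts in 3 libraries) to 389 (DESeq2 test) against 15. In the fits that left out 1 library, the calls over all genes ran from 2195 to 4160 in inputs, against 4017 in the main fit. They ran from 2796 to 5129 in precipitates, against 4512, and from 11961 to 13212 in the mutant enrichment, against 13102. Leaving out 1 library gave 0 to 1 calls among the 10 in the difference of enrichments (0 to 1 lower), 5 to 7 in inputs, 4 to 5 in precipitates (3 to 5 higher, 0 to 1 lower) and 1 to 2 higher in the mutant enrichment. It took values across 0 for ASNS (−0.169 to 0.0444) and TRIB3 (−0.0496 to 0.197) in inputs, ATF4 (−0.041 to 0.0712), ASNS (−0.0137 to 0.187) and TRIB3 (−0.0451 to 0.0994) in precipitates, CHAC1 (−0.161 to 0.127) in the WT enrichment, and DDIT3 (−0.0714 to 0.131), TRIB3 (−0.207 to 0.0393), SESN2 (−0.137 to 0.024) and SLC7A11 (−0.18 to 0.132) in the difference.

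Replicate numbers were not taken as pairs in the main fit. Deviations of same-numbered libraries correlated from −0.521 to 0.612 over 18 pairs, 8 of them over 0.1. Numbers 1, 2 and 3 gave 0.357, 0.612 and 0.0441 between mutant RIP and WT RIP. RIP and input of a line gave 0.29, −0.0358 and 0.42 in the mutant line and 0.3, 0.135 and −0.166 in the WT line. Whether a number marks a pair cannot be told from these mixed values. The replicate block changed no call among the 10 genes, with SLC7A11 at 0.00484 in the difference. A replicate block within line, with SLC7A11 at 0.0209, added the call of SLC7A5 in the difference (−0.907, adjusted p = 0.0119). Over all genes it called 105 in the difference, against 15 in the main fit. CHAC1, at 40 to 217 reads per library, is the gene that depth limits most.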
